A study of Mus musculus with 10 samples.

Results

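The genes described here are 9 marker genes of the cells that surround neurons in the brain: Mbp of oligodendrocytes, Gfap, Aqp4, Aldh1l1 and Slc1a3 of astrocytes, Pdgfra of oligodendrocyte precursors, Cx3cr1 and Csf1r of microglia, and Cldn5 of endothelial cells. They were chosen by name, as markers of cells that a sort for neuronal nuclei should leave out, and were found by symbol among the 54532 genes of the count tables. RNA was sequenced from nuclei of adult C57BL/6J mouse brains that had been sorted by fluorescence with an antibody to NeuN, a nuclear protein of most mature neurons. The study asked what changes in neurons when MPP8 (gene Mphosph8) or MORC2A (gene Morc2a), both of which take part in silencing by the HUSH complex, is lost from the nervous system. The values below give the level of these markers in each library, and whether it differed between the groups that the study compared. RNA of other cells and transcription of the same genes in neurons cannot be told apart in these counts.

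The 10 libraries fall into 3 groups. The 5 controls carry floxed alleles without Nestin-Cre, replicates 1 to 3 being Mphosph8 fl/fl and replicates 4 and 5 being Morc2a fl/fl. The 3 Mphosph8Δ/Δn libraries are Mphosph8 fl/fl with Nestin-Cre, and the 2 Morc2aΔ/Δn libraries are Morc2a fl/fl with Nestin-Cre. No control carried the Cre transgene, so its own effect and that of the deletion cannot be told apart. Nestin-Cre acts in neural progenitors, which give rise to neurons, astrocytes and oligodendrocytes, while microglia and endothelial cells have other origins. The labels do not say that replicates are separate mice, and p-values measure the spread between these libraries only. All 10 libraries are poly(A) RNA of whole-brain nuclei, with between 6686038 and 10764555 counts in genes. The neuronal gene Rbfox3, which encodes NeuN itself, lay between 150 and 304 CPM (counts scaled to a common library size) in all of them. Mphosph8 was between 18.8 and 37.1 CPM in its knockout and between 32.2 and 48.9 in controls, and Morc2a was between 215 and 223 in its knockout and between 122 and 163 in controls. In both alleles a single exon is deleted, and a count over the whole gene does not check its loss. The paper states that this deletion puts the mRNA out of frame and exposes it to nonsense-mediated decay. It verified the loss of both genes by quantitative RT-PCR and by immunoblots of whole brains.

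Oligodendrocytes wrap axons in myelin, and myelin basic protein, encoded by Mbp, holds the layers of that sheath together. Astrocytes take up glutamate through transporters such as that of Slc1a3, move water through the channel of Aqp4, build filaments from the protein of Gfap and oxidise folate derivatives with the enzyme of Aldh1l1. Oligodendrocyte precursors divide in response to platelet-derived growth factor, whose receptor Pdgfra encodes. Microglia, the resident macrophages of the brain, depend on the growth factor receptor of Csf1r and sense the neuronal chemokine fractalkine through that of Cx3cr1. Claudin 5, the product of Cldn5, seals the tight junctions between endothelial cells of the blood-brain barrier.

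All 9 are protein-coding. In GRCm38 with the GENCODE M21 annotation, Mbp spans chr18:82475146-82585637, Aqp4 chr18:15389496-15410982 and Csf1r chr18:61100598-61132149. Gfap lies at chr11:102887336-102900912, Aldh1l1 at chr6:90486427-90600203 and Slc1a3 at chr15:8634124-8710764. Pdgfra is at chr5:75152292-75198215, Cx3cr1 at chr9:119901616-120069879 and Cldn5 at chr16:18776847-18778262. Exons of Mbp, Gfap, Aqp4, Slc1a3 and Cldn5 share no base with another gene. Of the exonic bases of Csf1r, 15.1% lie opposite exons of Hmgxb3, which had between 147 and 330 counts per library, and the strand setting of the counting is not stated, so reads there cannot be assigned to either gene with certainty. Aldh1l1 shares 13.4%, Pdgfra 6.50% and Cx3cr1 1.73% of exonic bases, with genes that had at most 1 count in any library. The counts are sums over all transcripts of a gene, and Mbp also gives rise to longer transcripts, called Golli, that some neurons make.

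Mbp stood far above the others in every library. Its counts were 3965, 6254, 5606, 4810 and 3016 in control replicates 1 to 5, 5827, 6310 and 3981 in Mphosph8Δ/Δn replicates 1 to 3, and 3580 and 2931 in the Morc2aΔ/Δn libraries. Between 103 and 458 was its rank by CPM among all genes of a library, and between 97.5% and 99.4% of the 18573 genes that passed the filter on low counts lay below it. It alone made between 74.5% and 84.4% of the summed CPM of the 9 genes. All 9 genes passed that filter, and together they made between 0.0404% and 0.0755% of the counts of a library. Set against 10 neuronal genes (Rbfox3, Snap25, Syt1, Map2, Tubb3, Nefl, Stmn2, Eno2, Syp and Syn1), their summed CPM was between 8.44% and 13.4% of the neuronal sum.

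Levels of different genes were compared as CPM per kilobase of exon, as means over the 10 libraries. Mbp had 57.4 ± 12.3 (SD, n = 10), between the neuronal genes Syn1 at 52.5 ± 8.83 and Stmn2 at 59.8 ± 8.87, and above Rbfox3 at 43.0 ± 7.94. Slc1a3 followed at 7.76 ± 0.911 and Aldh1l1 at 3.09 ± 0.997. These 3 levels were separate, since the lowest library for Mbp, at 35.7, lay above the highest for Slc1a3, at 9.96, and the lowest for Slc1a3, at 6.86, lay above the highest for Aldh1l1, at 5.02. Csf1r at 2.47 ± 0.678, Aqp4 at 1.55 ± 0.560 and Gfap at 0.939 ± 0.432 came next. Pdgfra at 0.417 ± 0.199, Cldn5 at 0.40 ± 0.393 and Cx3cr1 at 0.355 ± 0.319 were the lowest. From Aldh1l1 downwards, each gene overlapped its neighbour in the order over the libraries.

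**Figure D1:**
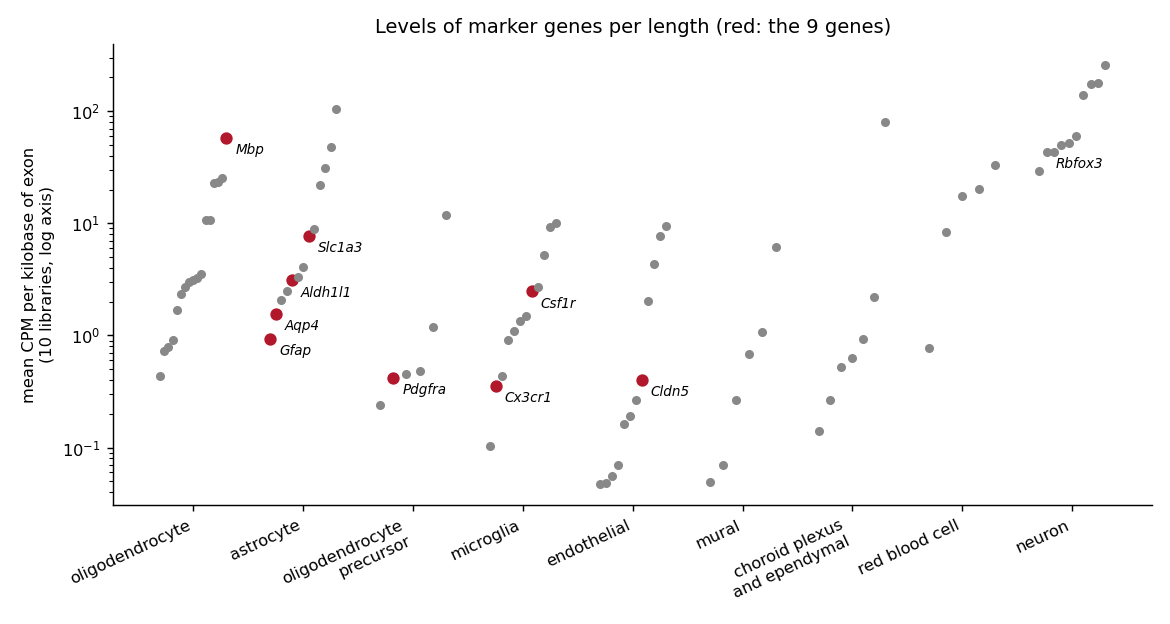
Mean level over the 10 libraries, in CPM per kilobase of exon on a log axis, of each gene of 9 marker lists, 1 point per gene, with the 9 genes described in red. Mbp is the highest oligodendrocyte gene at 57.4, in the range of the neuronal genes (29.3 to 258), while Pdgfra, Cldn5 and Cx3cr1 lie near 0.4.

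Each of the 9 was also set among other markers of its cell type. Mbp was the highest of 17 oligodendrocyte genes per kilobase, with Cnp, which encodes an enzyme of myelin, at 23.2 ± 5.59 and Mobp at 10.6 ± 2.22. The 4 astrocyte genes were not the highest of their list of 13. Aldoc, a glycolytic enzyme, had 104 ± 22.1 CPM per kilobase, Slc1a2, the other main glutamate transporter, had 31.4 ± 3.46, and Gfap was the lowest of the list. Among microglial genes the complement gene C1qb had 9.23 ± 4.62. Among endothelial genes the glucose transporter gene Slc2a1 had 9.37 ± 1.88, while Cdh5 and Pecam1, which encode adhesion proteins that define endothelium, were at 0 counts in 7 and 5 libraries. Lhfpl3, with 11.9 ± 2.24, was the highest of 6 precursor genes, against 0.417 for Pdgfra.

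In astrocyte genes, the libraries differed by gene. Slc1a3 was the steadiest of the 9, with 59.1, 63.0, 65.8, 72.4 and 58.6 CPM in control replicates 1 to 5, 85.1, 67.4 and 64.4 in Mphosph8Δ/Δn, and 61.0 and 65.9 in Morc2aΔ/Δn. Gfap was between 1.502 and 5.64 CPM in controls (1.502, 2.24, 3.27, 4.05 and 5.64), at 6.92, 6.18 and 2.07 in Mphosph8Δ/Δn, and at 3.51 and 4.23 in Morc2aΔ/Δn. Both knockouts overlapped the controls for these 2 genes, although Mphosph8Δ/Δn replicates 1 and 2 lay above every control for Gfap. Aqp4 had 7.13, 10.7, 9.53, 6.82 and 15.1 CPM in controls, 14.4, 6.95 and 7.13 in Mphosph8Δ/Δn, and 13.2 and 5.67 in Morc2aΔ/Δn. Aldh1l1 had 15.02, 13.6, 16.7, 13.9 and 22.7 CPM in controls, 16.6, 13.7 and 5.48 in Mphosph8Δ/Δn, and 11.2 and 10.7 in Morc2aΔ/Δn. The 2 Morc2aΔ/Δn libraries lay below all controls for Aldh1l1, and for Aqp4 replicate 2 lay below them and replicate 1 within their range.

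For Mbp, the controls had 496, 609, 524, 475 and 447 CPM, the Mphosph8Δ/Δn libraries 602, 609 and 411, and the Morc2aΔ/Δn libraries 381 and 302. Pdgfra had 4.38, 3.80, 3.08, 6.12 and 4.15 CPM in controls, 7.75, 5.79 and 0.620 in Mphosph8Δ/Δn, and 3.08 and 2.99 in Morc2aΔ/Δn. Both Morc2aΔ/Δn libraries were below every control for Mbp. They were also below for Pdgfra, by a margin under the rounding given here against control replicate 3. Mphosph8Δ/Δn replicate 3 was the lowest of all 10 libraries for Pdgfra, with 6 counts, and for Aldh1l1.

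The microglial gene Csf1r had 14.4, 21.9, 13.4, 20.3 and 13.0 CPM in controls, 10.6, 11.5 and 14.9 in Mphosph8Δ/Δn, and 10.1 and 12.7 in Morc2aΔ/Δn. Cx3cr1 was near the limit of detection, with 0.626, 1.36, 3.65, 0.790 and 3.56 CPM in controls, 3.62, 0 and 0.310 in Mphosph8Δ/Δn, and 1.06 and 1.03 in Morc2aΔ/Δn. A count of 0 in Mphosph8Δ/Δn replicate 2 allows up to 3 counts, or 0.290 CPM. For Cldn5, the controls had 0, 0.390, 0.374, 1.28 and 0.593 CPM, the Mphosph8Δ/Δn libraries 1.55, 1.06 and 0.413, and both Morc2aΔ/Δn libraries 0, which allows up to 0.319 and 0.310 CPM. No library held more than 15 counts of Cldn5 or more than 39 of Cx3cr1. Such limits cover counting error only.

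**Figure D2:**
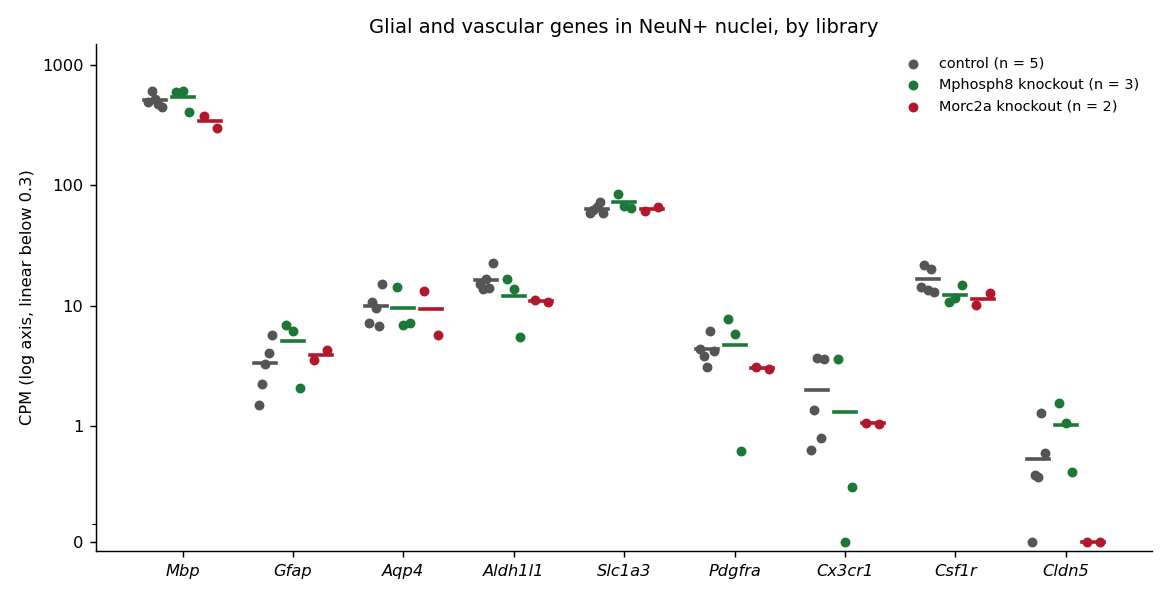
CPM of each gene in every library (points; log axis, linear below 0.3) with group means (lines), for 5 controls, 3 Mphosph8Δ/Δn and 2 Morc2aΔ/Δn libraries. Mbp lies between 302 and 609 CPM and Cldn5 between 0 and 1.55, and the Morc2aΔ/Δn points lie below all control points for Mbp, Aldh1l1, Pdgfra and Csf1r.

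The spread between libraries of a group exceeded counting error for all 9 genes. The chi-square per degree of freedom within groups, which is near 1 where only counting varies, was 3.63 for Cldn5, between 7.07 and 14.6 for the 7 genes from Gfap to Csf1r, and 117 for Mbp, against a median of 11.1 over all tested genes and 75.6 for Rbfox3. Over the 10 libraries the SD was 11.7% of the mean for Slc1a3, 21.4% for Mbp and 98.1% for Cldn5.

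Loss of Mphosph8 left all 9 genes short of the threshold. A call needed a Benjamini-Hochberg adjusted p under 0.05 together with more than a 2-fold change. By the quasi-likelihood test of edgeR, 0 of the 9 were called, against 0.0969% of all 18573 genes tested (18 genes). DESeq2 and limma-voom also called 0 of them, and 0 had an unadjusted p below 0.05 in edgeR, as 5.67% of tested genes did. The log2 fold change was 0.08 for Mbp (SE 0.14), 0.60 for Gfap (SE 0.54), -0.45 for Aldh1l1 (SE 0.33) and -0.43 for Csf1r (SE 0.28). Slc1a3 had 0.18 (SE 0.15), Pdgfra 0.13 (SE 0.59), Aqp4 -0.05 (SE 0.38), Cx3cr1 -0.60 (SE 1.12) and Cldn5 0.91 (SE 1.30). Adjusted p-values in edgeR lay between 0.951 and 0.999. Several of these values moved by over 1.5 times with a single library left out, and no call was gained. Without Mphosph8Δ/Δn replicate 3 the log2 fold change was -0.11 for Aldh1l1, 0.98 for Gfap, 0.65 for Pdgfra and 0.25 for Mbp, and without replicate 1 it was -0.77 for Aldh1l1, 0.31 for Gfap, -0.42 for Pdgfra, 0.05 for Slc1a3 and 0.47 for Cldn5. For Cx3cr1 it was -3.59 without replicate 1 (unadjusted p of 0.0259 and adjusted p of 0.733 in edgeR), a fitted value that is no bound since the remaining libraries had 0 and 3 counts, -0.01 without replicate 2 and -0.13 without replicate 3. Leaving out a control gave -0.26 for Cx3cr1 without replicate 3 and -0.29 without replicate 5, and 0.60 for Cldn5 without replicate 1 and 1.55 without replicate 4. The median over the 9 genes was 0.08, beside -0.01 over all genes tested, with 5 positive and 4 negative. For none of the 9 did the 3 Mphosph8Δ/Δn libraries lie all above or all below the controls, as they did for 2.30% and 2.26% of the tested genes. The summed CPM of the 9 genes was 659 ± 133 (SD, n = 3) in Mphosph8Δ/Δn and 627 ± 60.7 (SD, n = 5) in controls, a log2 difference of 0.07. Mphosph8Δ/Δn replicate 3 was below its group with 507, and without it the difference was 0.23.

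In Morc2aΔ/Δn, Mbp had a mean of 342 ± 55.4 CPM (SD, n = 2) against 510 ± 62.1 (SD, n = 5) in controls, which is 0.669 of the control level. Its log2 fold change was -0.58 (SE 0.16) with an unadjusted p of 0.00249 and an adjusted p of 0.197 in edgeR, and it was not called. The adjusted p lay between 0.0213 and 0.652 over the alternatives run, below 0.05 in DESeq2 (0.0213) and with every counted gene tested in edgeR (0.0377), with a fold change under 2 in both. Without Morc2aΔ/Δn replicate 2, the library with the lowest Mbp, the log2 fold change was -0.43 and the adjusted p in edgeR 0.652.

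None of the 9 genes passed both thresholds in Morc2aΔ/Δn in edgeR (0 of 9, beside 0.0592% of the 18573 genes, or 11 genes), DESeq2 or limma-voom. At an unadjusted p below 0.05 there were 2 in edgeR, Mbp and Cldn5, where 10.7% of all tested genes (1991 genes) had such a p. Cldn5 was at least 3.36-fold lower than the control mean of 0.528 CPM, counting the Morc2aΔ/Δn libraries at 3 counts over the group (adjusted p = 0.426 in edgeR). This bound takes the control mean as exact, although the controls held between 0 and 13 counts, with control replicate 1 at 0 too. The other log2 fold changes were -0.58 for Aldh1l1 (SE 0.38), -0.54 for Csf1r (SE 0.32), -0.50 for Pdgfra (SE 0.70) and -0.92 for Cx3cr1 (SE 1.33). Gfap had 0.22 (SE 0.62), Aqp4 -0.06 (SE 0.44) and Slc1a3 -0.01 (SE 0.17). The value for Aqp4 was -0.79 without Morc2aΔ/Δn replicate 1 and 0.42 without replicate 2, that for Cx3cr1 -0.58 without control replicate 3, and that for Gfap between 0.03 and 0.47 with each library left out in turn. Of the 9, 8 were negative, with a median of -0.54 (the same with Cldn5 at its bound), beside -0.01 over all genes tested. Both libraries lay below every control for 4 genes, Mbp, Aldh1l1, Pdgfra and Csf1r, and above for 0, where 7.79% of tested genes lay below and 7.60% above. The exact permutation test of a single gene between 5 and 2 libraries cannot go below a two-sided p of 0.0952, the value for each of these 4 genes. In bulk RNA of sorted nuclei, fewer nuclei of a cell type and less RNA in each cannot be told apart.

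**Figure D3:**
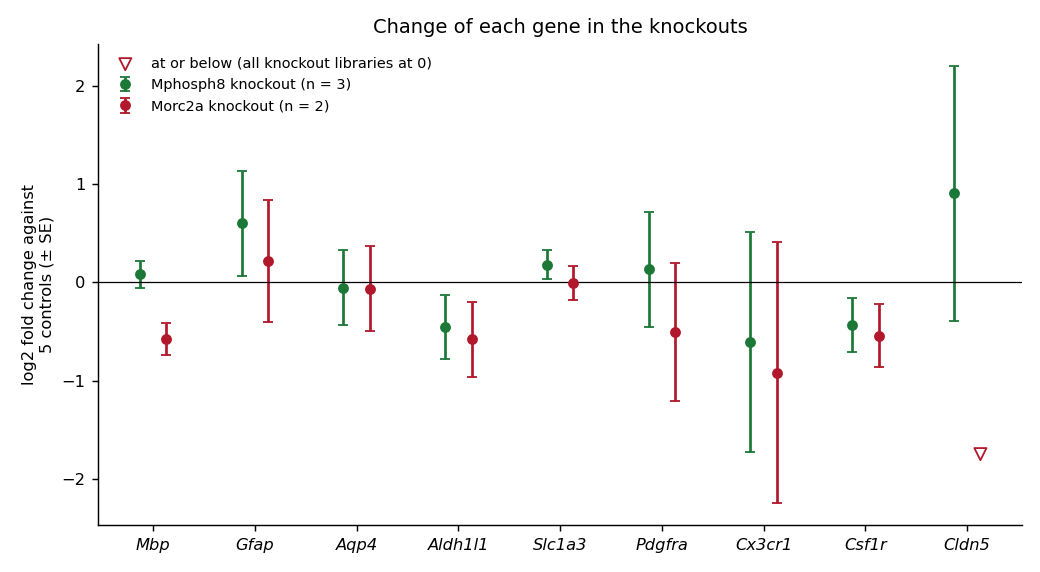
Log2 fold change of each gene against the 5 controls (points, with SE as bars) in Mphosph8Δ/Δn and Morc2aΔ/Δn, from edgeR. The open triangle is the bound for Cldn5 in Morc2aΔ/Δn, where both libraries were at 0, with the control mean taken as exact. Mbp in Morc2aΔ/Δn, at -0.58, is the only point with an SE that lies more than 2 SE from 0.

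Neuronal genes also had lower values in these libraries. In Morc2aΔ/Δn, 8 of the 10 neuronal genes had negative log2 fold changes, with a median of -0.37. Of the 10, 5 lay below every control and 0 above, where 7.79% of tested genes lay below and 7.60% above. Snap25, a protein of synaptic vesicle fusion, had 1375 and 1380 CPM in Morc2aΔ/Δn and between 1803 and 1993 in controls (log2 fold change -0.47, SE 0.09, adjusted p = 0.0528 in edgeR). Rbfox3 had a log2 fold change of 0.19 (SE 0.19) and Map2 one of 0.33 (SE 0.14). The summed CPM of the neuronal genes was 5132 and 4441 in Morc2aΔ/Δn and between 5556 and 6465 in controls. As a percentage of that sum, Mbp was 7.42% and 6.81% in Morc2aΔ/Δn, between 7.79% and 9.44% in controls, and 10.8%, 10.1% and 6.85% in Mphosph8Δ/Δn. The other 3 genes below every control in CPM overlapped the controls on this scale. Aldh1l1 was 0.218% and 0.242% in Morc2aΔ/Δn and between 0.211% and 0.395% in controls, Pdgfra 0.0601% and 0.0674% against 0.0477% to 0.102%, and Csf1r 0.197% and 0.286% against 0.207% to 0.340%. On the scale of the neuronal sum, only Mbp of the 4 remained below every control. That sum was itself lower in Morc2aΔ/Δn, while Rbfox3 was not. The ratio of Mbp to Rbfox3 was 1.36 and 1.21 in Morc2aΔ/Δn and between 1.78 and 2.99 in controls. In Mphosph8Δ/Δn it was 2.86, 2.01 and 1.37. The part of the lower neuronal levels in the lower CPM of the 4 genes was not tested. Summed over the 9 genes, the log2 difference of Morc2aΔ/Δn from controls was -0.50 in CPM, -0.16 relative to the neuronal sum, a scale chosen after the data were seen, and -0.18 in CPM without Mbp.

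Wider marker lists gave the following counts, all from edgeR, with 0 genes called in any list in either knockout. Of 17 oligodendrocyte genes, 13 were negative in Morc2aΔ/Δn with a median log2 fold change of -0.37, and 3 of the 17 had an unadjusted p below 0.05, beside the 10.7% of all tested genes: Mbp, Cnp at -0.54 (SE 0.22) and Ermn at -0.998 (SE 0.40). Of 13 astrocyte genes, 9 were negative in each knockout, with medians of -0.17 in Mphosph8Δ/Δn and -0.15 in Morc2aΔ/Δn. In each knockout 1 of the 13 had an unadjusted p below 0.05, beside 5.67% and 10.7% of all tested genes. These were Slc1a2 at -0.26 (SE 0.11) in Mphosph8Δ/Δn and Aldoc at -0.52 (SE 0.19) in Morc2aΔ/Δn. The 6 precursor genes had medians of 0.40 and -0.16, the 11 tested microglial genes -0.36 and -0.27, and the 10 tested endothelial genes 0.31 and -0.26, in the same order. Of the endothelial genes, 4 were positive and 6 negative in Morc2aΔ/Δn. Esam, an adhesion protein gene of endothelium, had 13.2 and 15.9 CPM in Morc2aΔ/Δn and between 8.13 and 17.5 in controls. The lowest adjusted p of the list was that of Itm2a, a membrane protein gene, which had 5.64 and 4.85 CPM in Morc2aΔ/Δn and between 12.3 and 24.2 in controls (log2 fold change -1.64, SE 0.38, adjusted p = 0.123).

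Markers of cells outside the 5 types were read in the same way. All 7 genes of the choroid plexus and ependyma, the tissues that make and line the fluid spaces, were negative in Morc2aΔ/Δn, with a median of -1.41, and none was called. That median was the value of a gene with an SE of 2.21. In Mphosph8Δ/Δn the median was -0.27, with 3 positive and 4 negative. There 2 of the 7, both lower, had an unadjusted p below 0.05 in edgeR, beside 5.67% of tested genes. Between the control lines 2 of the 7 had such a p too, both lower in the Morc2a line, beside 9.21% of tested genes. Of the 7, between 2 and 3 were at 0 counts in each Morc2aΔ/Δn library and between 0 and 2 in each control. Some fitted values of this list therefore rest on few counts. Ttr, a thyroid hormone carrier of the choroid plexus, had 64.7 and 53.8 CPM in Morc2aΔ/Δn, 104, 108 and 64.5 in Mphosph8Δ/Δn, and between 78.0 and 139 in controls (adjusted p = 0.152 in Morc2aΔ/Δn in edgeR). The Morc2a-line controls had 78.0 and 103 CPM of Ttr and the Mphosph8-line controls between 110 and 139 (log2 fold change between the lines -0.47, SE 0.22). The 4 tested mural genes had medians of -0.07 and -0.61 in Mphosph8Δ/Δn and Morc2aΔ/Δn, and the 5 red blood cell genes -0.47 and -0.39. Haemoglobin transcripts differed between the 2 Morc2aΔ/Δn libraries themselves, with Hbb-bs at 40.3 and 4.64 CPM.

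**Figure D4:**
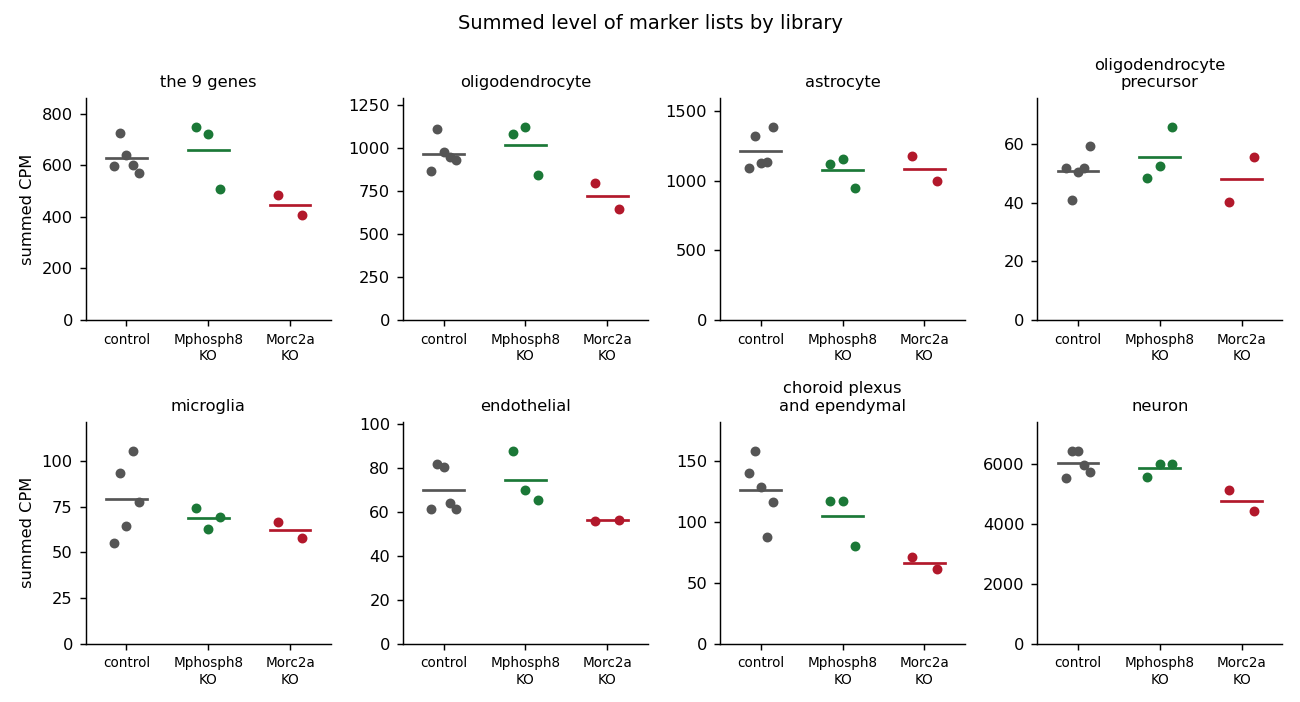
Summed CPM by library (points) and group means (lines) of the 9 genes and of 7 marker lists, each axis from 0. The Morc2aΔ/Δn libraries lie below all controls for the 9 genes, for oligodendrocyte, endothelial, choroid plexus and ependymal genes and for neuronal genes, and the groups overlap for astrocyte, precursor and microglial genes. Mbp makes most of the sum of the 9 genes and is also in the oligodendrocyte list. Without Mbp the sum of the 9 genes overlapped, at 103 CPM in both Morc2aΔ/Δn libraries and between 102 and 126 in controls. The oligodendrocyte sum without Mbp, and the endothelial sum without Itm2a, also overlapped the controls.

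Controls of the 2 floxed lines were compared because both enter each comparison. None of the 9 genes was called between them in edgeR (0 of 9, beside 0.129% of tested genes, or 24 genes), 0 had an unadjusted p below 0.05 where 9.21% of tested genes did, and DESeq2 and limma-voom called 0. Both Morc2a-line controls lay above the 3 Mphosph8-line controls for Gfap and Cldn5, where 14.0% of tested genes did so, and below them for Mbp, where 15.2% did so. Gfap was 4.84 CPM on average in the Morc2a line and 2.34 in the Mphosph8 line (log2 fold change 1.04, SE 0.65). With controls of the same line, the log2 fold change in Morc2aΔ/Δn was -0.43 for Mbp and -0.32 for Gfap, the latter turning from the 0.22 found with all controls.

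The difference between the effects of the knockouts, each against controls of its own line, was tested as an interaction. In edgeR it called 0 of the 9 and 0 of all 18573 genes (0%), with 1476 of all genes (7.95%) at an unadjusted p below 0.05, and DESeq2 called 45 genes and none of the 9. The effect of Mphosph8 loss minus that of Morc2a loss was positive for all 9, with a median log2 difference of 0.43 and 0.00 over all genes. It includes the difference of the Morc2a-line from the Mphosph8-line controls, which was positive for 8 of the 9 with a median of 0.25. In edgeR, 7 of the 9 were positive with the replicate block and without control replicate 5. Without Mphosph8Δ/Δn replicate 1, also 7 were positive, with a median of 0.24. Mbp had 0.43 (SE 0.23, adjusted p = 0.674), and Cldn5, with both Morc2aΔ/Δn libraries at 0, had the only unadjusted p below 0.05 of the 9 (0.0145, adjusted p = 0.517 in edgeR).

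Whether libraries with more of one cell type's markers also had more of another's was examined over the 10 libraries. Among all 36 pairs of the 9 genes, Pearson's r of log2(CPM + 1) was between -0.49 and 0.77 with a median of 0.28, and 30 were positive. In permutation tests with Benjamini-Hochberg adjustment over the 36 pairs, 0 passed 0.05 by Pearson's r or by Spearman's rho, and 4 had an unadjusted p below 0.05. The highest was Aldh1l1 with Pdgfra (r = 0.77, permutation p = 0.0246, adjusted p = 0.295; rho = 0.61, permutation p = 0.0651, adjusted p = 0.399), which was 0.51 without the 2 libraries farthest from the median of Aldh1l1 and 0.81 with values centred within groups. The 2 microglial genes of the 9, Cx3cr1 and Csf1r, had r = -0.15 (permutation p = 0.682, adjusted p = 0.852; rho = -0.15, permutation p = 0.681, adjusted p = 0.938; 0.10 without the 2 farthest libraries and -0.51 within groups). This is 1 pair, with Cx3cr1 near the limit of detection. With the 10 other tested genes of the microglial list, Csf1r had a positive r for 7 and Cx3cr1 for 6.

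Within its own list, the median r of a gene with the other members was highest for Aldh1l1 at 0.46, Aqp4 at 0.39 and Mbp at 0.37, and near that of all genes for Slc1a3 at 0.05 and Cx3cr1 at 0.03. Pdgfra had a median of -0.51 with the 5 other precursor genes, 1 of them positive. The gene of its list most like Mbp was Mobp, with r = 0.81. Such values describe 10 libraries that share groups and depth.

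Over all 18572 other tested genes, those most like Mbp by Pearson's r of log2(CPM + 1) were Ntrk2 at 0.965 (rho 0.93, and 0.90 without the 2 libraries farthest from the median of Mbp), Scn2b at 0.960 (rho 0.94, and 0.89) and Chga at 0.955 (rho 0.94, and 0.88). For the astrocyte genes they were Zfpm2, Map3k15 and Clec1b for Gfap, Slco1a5, 1110059G10Rik and Npffr2 for Aqp4, 9930017N22Rik, Prkcq and Epha6 for Aldh1l1, and Gm43364, Piezo2 and Gmnn for Slc1a3. For the others they were Zfp780b, Gm9752 and Pygb for Pdgfra, Gnpda2, Gm37403 and Actl9 for Cx3cr1, Musk, Cryga and Ifit3b for Csf1r, and Gabra6, Myo7a and Gm10837 for Cldn5. All of these lay between r = 0.886 and r = 0.965 over 10 libraries, and as the highest of 18572 values they carry no test. None of the 27 was on the list of the gene's own cell type.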

How the data were processed

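The authors trimmed single reads of poly(A) RNA with Trim Galore 0.5.0, removed abundant sequences with Bowtie2 2.3.4.1, aligned the rest to GRCm38 with STAR and counted reads in Ensembl genes with featureCounts of Subread 1.6.2. They used DESeq2 1.18.1 in R 3.4.1. The deposited values are raw counts for 54532 genes, with no normalization by the authors. Strand setting and treatment of reads on several genes are not given in the sources used here.

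The 9 genes and the marker lists were chosen with earlier results of these data known. Of the gene identifiers, 54495 had a symbol in GENCODE M21. Counts were fitted in R 4.3.3 with edgeR 4.0.16 (filterByExpr on 3 groups, TMM, quasi-likelihood test), all 10 libraries in 1 fit, and p-values were adjusted over all genes tested by the Benjamini-Hochberg method. A fit of 4 groups gave the comparison of control lines and the interaction. CPM used TMM-scaled library sizes, and correlations log2(CPM + 1) with 100000 permutations. A count of 3 corresponds to between 0.280 and 0.445 CPM. Python 3.11.15 with pandas 2.3.3, scipy 1.17.1 and matplotlib 3.10.9 made the tables and plots. Named besides the 9 genes are the 3 highest other genes of each list, Mphosph8, Morc2a and Rbfox3, and the 3 genes most correlated with each of the 9. Values of 2 genes that this rule names are not reported here. Cdh5, Pecam1, Ermn, Map2, Syn1, Stmn2 and Hmgxb3 were named after their values were seen. Alternatives were other size factors, filters, controls and groups in the fit, no minimum fold, a replicate block, DESeq2 1.42.0, limma-voom (limma 3.58.1) and leaving out each library. The scripts were tested on simulated data.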

Additional observations from a re-analysis of the deposited data

How the results depend on the processing

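The count of 0 called among the 9 genes held in all 4 comparisons under every alternative run. Signs of small log2 fold changes did not hold. In Mphosph8Δ/Δn, controls of the same floxed line gave -0.0063 for Mbp and 0.0516 for Aqp4, the replicate block -0.0285 for Mbp and -0.12 for Pdgfra, and limma-voom -0.42 for Pdgfra. In Morc2aΔ/Δn, controls of the same line gave -0.32 for Gfap, and testing every counted gene 0.0017 for Slc1a3. Leaving out each library in turn gave, in Mphosph8Δ/Δn, -0.0030 to 0.25 for Mbp, -0.48 to 0.15 for Aqp4 and -0.42 to 0.65 for Pdgfra, and, in Morc2aΔ/Δn, -0.79 to 0.42 for Aqp4 and -0.0700 to 0.0511 for Slc1a3. The summed CPM of the 9 genes differed by -0.0304 to 0.23 in Mphosph8Δ/Δn with each library left out, and in Morc2aΔ/Δn by -0.18 without Mbp and -0.16 relative to the neuronal sum, which was added after the data were seen. The cause of these changes was not tested, beyond fewer samples or the genes left out.

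Counts of all genes called depended more on the setting. In edgeR they were 18, 11, 24 and 0 for Mphosph8Δ/Δn, Morc2aΔ/Δn, the control lines and the interaction, 87, 98, 154 and 85 with every counted gene tested, and 43, 51, 95 and 45 in DESeq2. At least 10 counts in every library gave 24 for Morc2aΔ/Δn with 6 of the 9 genes tested, no minimum fold 16 in Morc2aΔ/Δn, the same-line controls 10 in Mphosph8Δ/Δn, the compared pair of groups alone 6 in Morc2aΔ/Δn, and limma-voom 14 for the control lines. Leaving out a library gave 6 to 21 in Mphosph8Δ/Δn, 3 to 26 in Morc2aΔ/Δn, 11 to 44 for the control lines and 0 to 7 for the interaction. Residuals correlated at -0.03 to 0.04 over 7 same-numbered pairs of libraries and -0.06 to 0.04 over 24 others. Replicate numbers 1 and 2 join libraries of both floxed lines, and the Morc2a-line controls are replicates 4 and 5. Neither these correlations nor a block by replicate number can therefore show whether littermates of the Morc2a line were paired. The replicate block gave 0 of the 9 genes called in each comparison, and 12, 46, 2 and 0 genes in all. With 2 Morc2aΔ/Δn libraries and at most 15 counts of Cldn5 and 39 of Cx3cr1 in a library, changes in these genes were hardly detectable at this depth.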
